A study of Mus musculus with 24 samples.

Results

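Gt(ROSA)26Sor, the gene at the Rosa26 transgene site, and 6 protein-coding neighbours on murine Chr 6 were followed through shallow whole genome sequencing of adrenal glands and tumours. These 7 genes, Gt(ROSA)26Sor, Thumpd3, Setd5, Brpf1, Ogg1, Vhl and Atp2b2, lie at or near the site of the transgenes and were chosen with results at this site known, out of 20605 autosomal genes that could be placed on the deposited segments. Each gene took the median log2 ratio of the segment over it, relative to wildtype adrenal glands. A gene was called gained at a log2 ratio of at least 0.3 and amplified at more than 4 copies, with copies computed as 2 times 2 to the power of the log2 ratio.

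The study lists 24 samples. AG are adrenal glands of CRE-negative animals (n = 3), which served as the reference and have no segments of their own here. The other groups are all CRE-positive. AGM are adrenal glands with the genotype MYCN fl/wt (n = 5). TI are IGF2BP1 tumours (n = 8), of which TI 1 is IGF2BP1 +/- and the other 7 are IGF2BP1 +/+. TIM are tumours labelled IMP1/MYCN (n = 8, replicates 1, 4, 5, 7, 8, 9, 11 and 12). According to the study's methods, the IGF2BP1 and MYCN transgenes sit at Rosa26 behind a stop cassette that iCRE, driven by Dbh, removes in sympathoadrenal cells. A TIM animal thus carries IGF2BP1 on 1 allele and MYCN on the other, and an AGM animal carries MYCN on 1 allele. The labels place TI 6, TIM 1 and TIM 5 in the adrenal gland. All 8 TIM and all 5 AGM samples share the title prefix AGH, whereas 7 of 8 TI tumours carry the prefix SH. What the prefixes mean is not given in the sources used here. With TI 8 as the only TI tumour labelled AGH, prefix and genotype can hardly be told apart in any comparison of TI.

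Rosa26 is a locus that is transcribed in most tissues, gives rise to non-coding RNA and tolerates insertions, which is why transgenes are often placed there. Amplification of a stretch of chromosome carries every gene on it along, whether or not a given gene matters to the cell. The copy number of the neighbours therefore shows how far an amplified stretch reaches on either side of a site. In neuroblastoma, amplification is best known for MYCN itself.

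Gt(ROSA)26Sor (ENSMUSG00000086429) lies on the minus strand of Chr 6 from 113043843 to 113055336 (GRCm39, GENCODE M39). Its ends overlap both neighbours. Thumpd3 (113023186 to 113046638, plus strand) shares 2796 bases with it and Setd5 (113052990 to 113130729, plus strand) shares 2347 bases. The further members follow on the side of Setd5. Brpf1 lies from 113283799 to 113301824, Ogg1 from 113303854 to 113312054 and Vhl from 113600920 to 113608599, all on the plus strand. Atp2b2, on the minus strand, spans 113720766 to 114021022 and is the longest member with 300257 bases. Brpf1, Ogg1, Vhl and Atp2b2 begin 228, 249, 546 and 665 kb from Gt(ROSA)26Sor.

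The point of the transgenes within the gene is marked by the study's genotyping primers, of which A1 and A3 detect the wildtype locus. They are shown because they place the transgenes on the same coordinates as the segment ends. Each matched GRCm39 at exactly 1 place, at chr6:113053004-113053028 on the minus strand for A1 and at chr6:113052730-113052753 on the plus strand for A3. The third sequence is the reference at chr6:113052980-113053009, written on the strand of Gt(ROSA)26Sor. Its first bases are the 3′ end of A1, and it shows the recognition motif of the enzyme XbaI (TCTAGA), which lies between the primers, in capitals.
A1: ctcttccctcgtgatctgcaactcc
A3: catgtctttaatctacctcgatgg
XbaI window: aactccagtcttTCTAGAagatgggcggga
The XbaI motif of this first-intron region is the usual cloning site for Rosa26 transgenes, although the sources used here do not state it for these alleles. The wildtype product of A1 and A3 spans 299 bases and holds 1 XbaI motif, out of 6 in the gene (the motif is its own reverse complement, so 1 strand was searched). The annotation places the motif in an intron of 19 and in an exon of 7 of the 26 Gt(ROSA)26Sor transcripts that span it, and in an exon of Setd5. The transgenes themselves are not part of the reference genome, and the segments therefore measure the mouse sequence around them. They do not tell the alleles apart.

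All members were at about 2 copies in the MYCN-bearing adrenal glands. The log2 ratio at Gt(ROSA)26Sor was 0.0153, 0.0155, 0.0151, 0.0154 and 0.0150 in AGM 1 to 5, or 2.02 copies in each gland. These 5 values differed by less than 0.001. In each gland the members lay on 1 segment of 88.6 Mb that ran to the end of the chromosome. None of the members was gained (0 of 5, Clopper-Pearson 95% interval 0 to 52.2%).

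In TI tumours the log2 ratio at Gt(ROSA)26Sor was 0.234 in TI 1, 0.0050 in TI 2, 0.506 in TI 3, 0.439 in TI 4, 0.223 in TI 5, 0.0255 in TI 6, 0.0349 in TI 7 and 0.0141 in TI 8. The tumours thus fell into more than 1 level. TI 3 and TI 4 passed the threshold with 2.84 and 2.71 copies, TI 1 and TI 5 stayed below it with 2.35 and 2.33 copies, and the other 4 were at 2.01 to 2.05 copies. No TI tumour was amplified (0 of 8, interval 0 to 36.9%).

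In TIM tumours the log2 ratio was 0.478 in TIM 1, 0.0188 in TIM 4, 3.0 in TIM 5, 0.711 in TIM 7, 0.0224 in TIM 8, 3.0 in TIM 9, 0.558 in TIM 11 and 0.781 in TIM 12. TIM 5 and TIM 9 were amplified at 16 copies (2 of 8, interval 3.19 to 65.1%). TIM 1, TIM 7, TIM 11 and TIM 12 were gained at 2.79, 3.27, 2.94 and 3.44 copies, while TIM 4 and TIM 8 remained at 2.03 copies. A sample's copy number averages all its cells, so more cells with the gain and more copies per cell cannot be told apart.

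**Figure D1:**
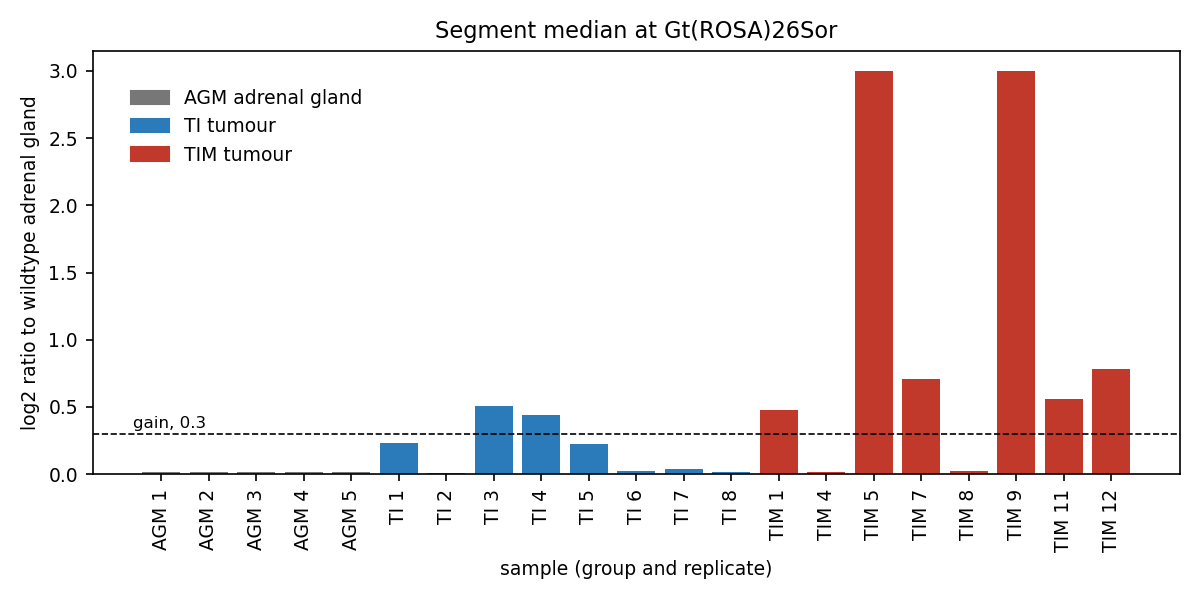
Median log2 ratio of the segment over Gt(ROSA)26Sor in each sample, relative to wildtype adrenal glands (bars, 1 per sample, coloured by group; dashed line, threshold for a gain at 0.3). TIM 5 and TIM 9 reach 3.0, the 5 AGM glands lie at 0.015, and TI and TIM overlap below 0.51.

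The 6 other members had the same values. In 20 of 21 samples all 7 members lay on a single segment, so they are 1 measurement rather than 7. The exception was TIM 9, where Thumpd3, a tRNA guanine methyltransferase, was cut by a segment end. Here 6638 of its 23453 bases (28.3%) lay in the amplified segment at 16 copies, and the rest lay at 2.03 copies. Averaged over its whole body, the log2 ratio of Thumpd3 in TIM 9 was 0.86, above the threshold for a gain. Whether the gene counts as amplified there depends on the averaging, since this mean corresponds to 3.64 copies while the mean of the copies was 5.98. In the counts below it is taken as amplified, by its highest segment. The end of a segment is known to the 20 kb of the grid on which the segments start.

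The other 5 protein-coding members were amplified whole in both TIM 5 and TIM 9. Setd5, a SET domain protein linked to neurodevelopment, and Brpf1, a scaffold of histone acetyltransferase complexes, act on chromatin. Ogg1 encodes the glycosylase that removes oxidised guanine from DNA. Vhl encodes the substrate-binding subunit of the ubiquitin ligase that degrades hypoxia-inducible factors. Atp2b2 encodes a calcium pump of the plasma membrane. Each of these genes was at 16 copies in TIM 5 and in TIM 9, at 3.27 copies in TIM 7 and at 3.44 copies in TIM 12.

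The height of 16 copies needs care. The log2 ratio was 3.0 to within 0.0005 in 4 segments of the file, and 1 segment lay higher, at 3.06. These 4 were in TIM 5 and TIM 9 at the site, and in TIM 1 and TIM 11. The higher segment was in TIM 12. All of them lay on Chr 6, inside the gained region around the site. The one in TIM 1 ran from 60660001 to 61000000, a stretch at 13.2 to 15.3 copies in the AGM glands. The segment means were 2.94 in TIM 5 and 2.97 in TIM 9. Whether the values were limited at 3 by the copy number model was not tested, and no difference in height between TIM 5 and TIM 9 can be read from them.

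The ends of the segments told the tumours apart (see the plot of segment medians by distance). TIM 5 had a single amplified segment of 5.88 Mb, from 110400001 to 116280000. It began 2.64 Mb before Gt(ROSA)26Sor and ended 3.22 Mb after it. The segments on either side were at 0.011 and 0.013 (2.02 copies on both sides), so the level fell by 2.99 at each end. The first end lay in no gene, 223 kb before Grm7, a metabotropic glutamate receptor gene, and 1561 kb after Edem1. The other end lay inside Zfand4, between Washc2 and Marchf8. The segment touched 61 protein-coding genes, of which 60 were whole.

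In TIM 9 the amplified segment was 1.1 Mb long, from 113040001 to 114140000, and it began at the site itself. Its start lay 3.84 kb from the nearer end of Gt(ROSA)26Sor and 12.7 kb from the primer product shown above, both less than 1 step of the 20 kb grid. From the product the segment ran to the side of Setd5 and ended 1.09 Mb further on. The flanking segments were at 0.019 and 0.027 (2.03 and 2.04 copies), with drops of 2.98 and 2.97. The start lay inside Thumpd3, with Srgap3 as the next gene outside. The end lay 31.8 kb into Slc6a11, a GABA transporter gene of 119 kb. The segment touched 30 protein-coding genes, of which 28 were whole.

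The segment of TIM 9 lay wholly within that of TIM 5. It was also the stretch shared by all 8 tumours with a gain at the site, 6 TIM and 2 TI, because each of the others had a longer gain. Among segments of at least 1 Mb, only 3 exceeded 4 copies in the 16 tumours. These were the segments of TIM 5 and TIM 9 at Rosa26 and a segment of 1.42 Mb on Chr 2 in TI 3, with 5.54 copies. In all, 23 of 1224 tumour segments exceeded 4 copies.

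**Figure D2:**
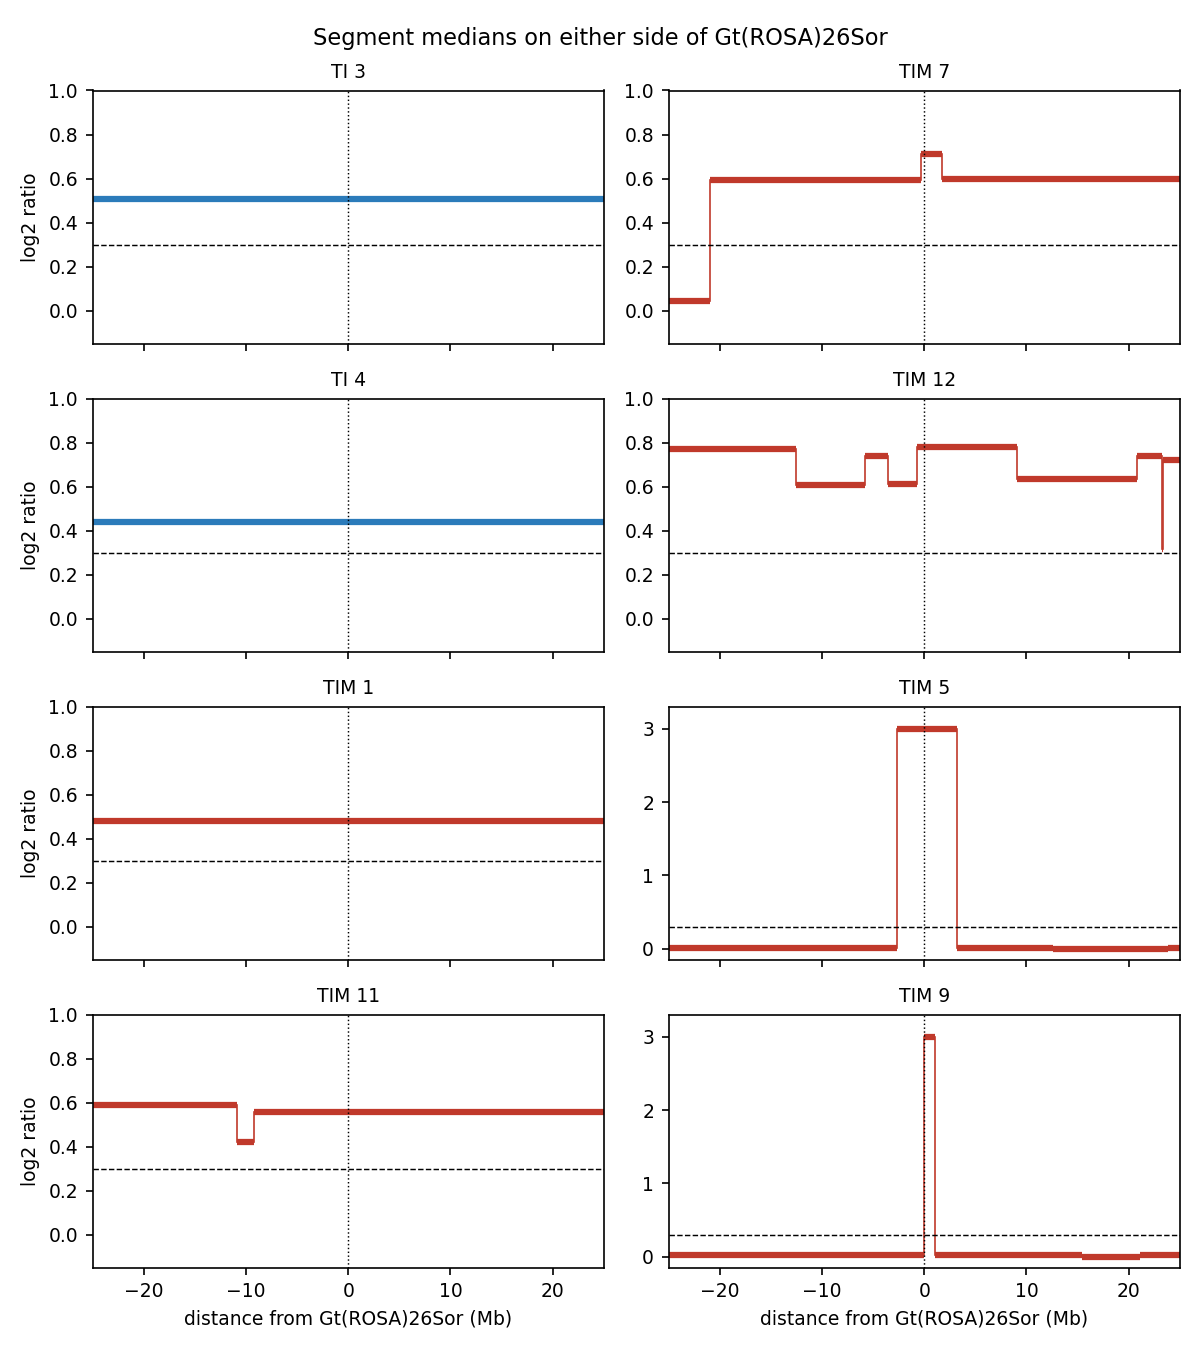
Median log2 ratio of the segments (thick lines, thin lines join neighbouring segments) within 25 Mb on either side of Gt(ROSA)26Sor in the 8 tumours gained there (dashed line, threshold at 0.3; dotted line, the gene). The vertical scale reaches 3.3 for TIM 5 and TIM 9 and 1.0 for the others. Only TIM 5 and TIM 9 return to about 0 on both sides, and TIM 7 and TIM 12 step up at the gene from a level already gained.

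TIM 7 and TIM 12 were gained on both sides of the site and higher at the site. In TIM 7 a gain from 92100001 to 149500000 (57.4 Mb, 38.4% of Chr 6) held a segment of 2.06 Mb at the members, from 112780001 to 114840000. Its log2 ratio of 0.711 exceeded the flanks at 0.595 and 0.600 by 0.12 and 0.11, that is 3.27 against 3.02 and 3.03 copies. The segment began inside Srgap3 and ended 2.41 kb into Vgll4, just after Atg7. In TIM 12 the members lay on a segment of 9.78 Mb, from 112340001 to 122120000, at 0.781 against flanks at 0.610 and 0.633, higher by 0.17 and 0.15. It began 3.73 kb into Ssu2 and ended in no gene, between Mug2 and Klrg1. Chr 6 of TIM 12 was split into 25 segments, and other segments of similar height lay outside the site. In the AGM glands, which had no gain at the site, 20 of 21 segments of 1 to 10 Mb lay between -0.037 and 0.045, and the remaining segment was at -0.36. This range does not measure the noise between neighbouring segments of a gained tumour. Steps of similar size lay away from the site. Neighbouring segments were at 0.773, 0.607 and 0.738 in TIM 12, and at 0.588 and 0.424 in TIM 11. The steps at the site had no replicate within a tumour and were not tested.

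In TIM 1 and TIM 11 and in the gained TI tumours no segment end lay near the members. The segment with the members was 88.6 Mb long in TIM 1 and in TI 4, where it ran to the end of the chromosome. In TIM 11 its length was 34.3 Mb and in TI 3 it was 68.0 Mb. From Gt(ROSA)26Sor to the nearest segment end it was 9.20 Mb in TIM 11. The same distance was 25.8 Mb for TI 3, and 36.5 Mb for both TIM 1 and TI 4. The level of the members minus that of the segment on either side was 0.13 and -0.064 in TIM 11, and 0.11 and -0.047 in TI 3. The gained region covered 97.8% of Chr 6 in TIM 11, 97.9% in TIM 1 and TI 3 and 59.2% in TI 4. In TI 1 and TI 5, below the threshold, the members lay on segments of 88.6 and 64.1 Mb. In TI 8 the members were at 2.02 copies, but a loss at -0.99 (1.01 copies) began 9.60 Mb beyond the gene. In many samples, all AGM glands included, the long segment began next to a short segment of 0.34 Mb. This short segment is more than 52 Mb from the site and held no member. It was at 13.2 to 15.3 copies in the AGM glands, 15.8 in TIM 4 and 12.6 in TIM 8. In the TI tumours with this segment it ranged from 0.061 copies in TI 5 to 8.51 in TI 8. A height near that of TIM 5 and TIM 9 at the site was thus also seen elsewhere on Chr 6, in AGM glands too.

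The value at the gene was also set against the rest of Chr 6. The length-weighted median log2 ratio of Chr 6 outside 10 Mb on either side of the gene was subtracted from the value at the gene. This excess was 2.99 in TIM 5 and in TIM 9, 0.65 in TIM 7 and 0.11 in TIM 12, and it was -0.018 in TIM 11. It was 0 in TIM 1, TIM 4 and TIM 8, in TI 1 to TI 7 and in the 5 AGM glands, and 0.0023 in TI 8. In the samples at 0 the segment of the gene reached beyond these 10 Mb and held the median of the chromosome, so the gene was compared with its own segment and the excess is 0 by construction. The excess of 0.65 in TIM 7 is larger than its step at the gene, since the gain covered 38.4% of Chr 6 and the median of the chromosome was 0.058. The groups overlapped, and the difference between TIM and TI did not pass the two-sided exact permutation test of the rank sum (p = 0.207, median 0.055 against 0, n = 8 and 8), in which these tied zeros carry no information on the gene alone. Without TIM 11 the exact permutation p was 0.0443, and with the length-weighted mean as the level of the chromosome the direction of the ranks turned (exact permutation p = 0.959).

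**Figure D3:**
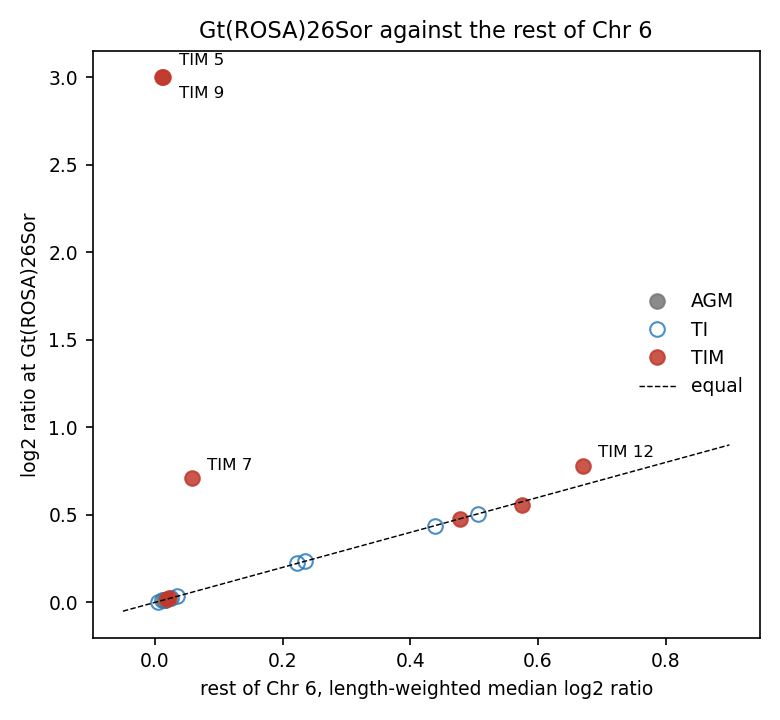
Median log2 ratio at Gt(ROSA)26Sor (vertical) against the length-weighted median of the rest of Chr 6 (horizontal), 1 point per sample (grey AGM, open blue TI, red TIM; dashed line, equal values). TIM 5 and TIM 9 overlie each other at 3.0, TIM 7 and TIM 12 lie above the line at 0.711 and 0.781, and the TI and AGM samples follow the line.

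The number of gained tumours was compared between genotypes at each member. Each of the 7 members was gained in 6 of 8 TIM tumours (75%, interval 34.9 to 96.8%) and in 2 of 8 TI tumours (25%, interval 3.19 to 65.1%). The difference did not pass the two-sided Fisher's exact test (p = 0.132, adjusted p = 1 over the 20605 genes). With 8 against 8 tumours, a gain in all TIM and no TI tumours at the genes of this site alone would not pass that adjustment. The adjusted value therefore cannot decide whether the genotypes differ here. No gene of the genome passed that test after adjustment (0% of genes, 1345 at an unadjusted p under 0.05). Against this background, 0.165% of genes (34 genes) were gained in at least 6 TIM tumours. Of these, 31 lay at the site, being the 7 members and 24 other genes that touch the shared stretch, and the remaining 3 were gained in all AGM glands too. By contrast, 19.5% of genes were gained in at least 2 TI tumours, the count the members reached there. More than 4 copies in at least 2 TIM tumours occurred in 0.16% of genes (33 genes, 31 of them at the site). Since 7 members on 1 segment share 1 value, these shares describe 1 region and are not 7 results.

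In levels, all 8 TIM tumours lay above all 5 AGM glands at Gt(ROSA)26Sor (40 of 40 pairs). The exact permutation p was 0.00155, which is the smallest for 5 against 8 samples, and 0.00466 after adjustment over 3 comparisons. This ordering includes TIM 4 and TIM 8, which exceeded the highest gland by less than 0.01. By the difference of means the adjusted exact permutation p was 0.0917. The adjustment over 3 comparisons does not cover the choice of this site with its results known. AGM are adrenal glands, and the paper found no tumours in animals with MYCN alone. Tumour state and genotype can therefore not be told apart in comparisons with AGM. TIM tumours lay above TI tumours in 51 of 64 pairs (median 0.634 against 0.129), with an exact permutation p of 0.0482 and an adjusted p of 0.0723. The groups overlapped, and the adjusted exact permutation p was 0.0205 without TIM 4 or without TIM 8, both at 2.03 copies, and 0.135 to 0.141 without TIM 5, TIM 7, TIM 9, TIM 11 or TIM 12. TI tumours and AGM glands were not told apart by this test. The tumour was higher in 30 of 40 pairs (exact permutation p = 0.171 before and after adjustment). The labels do not say whether the samples of a group come from separate animals. The paper reports as many tumour-bearing mice of each IGF2BP1 genotype as there are TI tumours. For mice with both transgenes it reports more tumours than animals. The tests treat each sample as a separate unit.

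The neighbours beyond the 6 members were described from a list of 31 further genes along this part of Chr 6. All 31 were placed by the annotation and gained in the same number of TI tumours as the members (2 of 8). In TIM tumours, 14 were gained in 6 and amplified in both TIM 5 and TIM 9, 16 were gained in 5 and amplified in TIM 5 alone, and Iqsec1, which lies 22.3 Mb before the site, was amplified in neither. The 14 genes were those from Lhfpl4 to Slc6a11. Slc6a11 itself was reached by the segment of TIM 9 only in part. In the whole genome, 30 protein-coding genes, the 6 members included, had exactly the same 8 gained tumours as Gt(ROSA)26Sor, and all 30 touched the shared stretch of Chr 6.

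By function, the neighbours fell on both sides of these ends. Of 3 DNA repair genes, Ogg1 and Fancd2, the Fanconi anaemia protein that is monoubiquitinated at crosslinks, were at 16 copies in TIM 5 and TIM 9. Rad18, the ubiquitin ligase of damaged replication forks, was at log2 3.0 in TIM 5 and at 0.019 in TIM 9. All 3 chromatin genes, Setd5, Brpf1 and Tada3, a subunit of acetyltransferase complexes, were amplified in both tumours. The GABA transporter gene Slc6a11 was amplified in both, in TIM 9 over part of its length. Ghrl, which encodes ghrelin, and the interleukin-17 receptor genes Il17re and Il17rc were amplified in both, whereas the oxytocin receptor gene Oxtr and the histamine receptor gene Hrh1 were amplified in TIM 5 alone. The kinase genes Irak2 and Camk1 were amplified in both tumours. Pparg, a nuclear receptor of fat cells, was at 3.0 in TIM 5 and at 0.027 in TIM 9. It lay beyond the raised segment of TIM 7 as well, at 0.60 against 0.711 at the members.

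**Figure D4:**
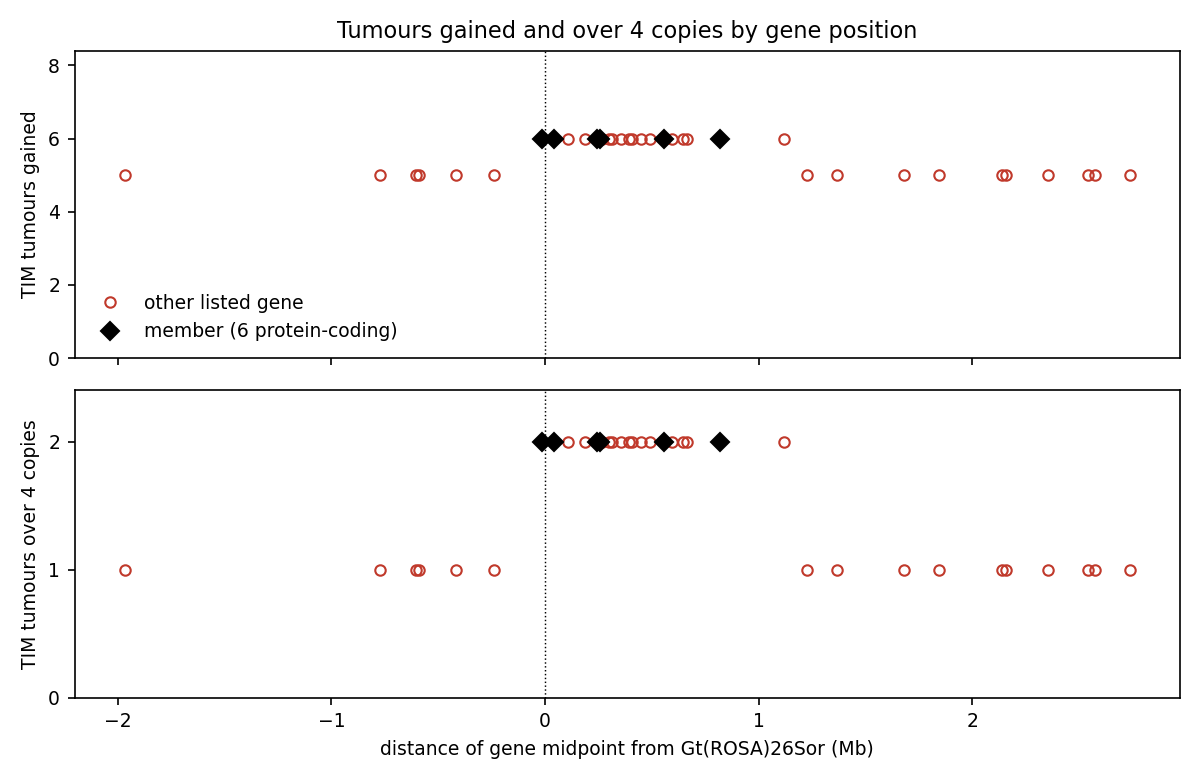
Number of the 8 TIM tumours gained (top) and above 4 copies (bottom) at each gene, by the distance of its midpoint from that of Gt(ROSA)26Sor (black diamonds, the 6 protein-coding members; open circles, 30 other listed genes; Iqsec1, 22.3 Mb away, is not drawn). Genes from Thumpd3 to Slc6a11 reach 6 and 2 tumours, and the genes on either side reach 5 and 1.

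Outside Chr 6, with 1 gene taken per chromosome, the 3 genes whose log2 ratio was most like that of Gt(ROSA)26Sor over the 16 tumours were 2310069G16Rik on Chr 15 (Spearman's rho 0.582), Gramd1b on Chr 9 (0.365) and Gtf2h1 on Chr 7 (0.232). None of these was gained in any tumour. Their highest log2 ratios were 0.010, 0.030 and 0.038. The correlations are descriptions over tumours of both genotypes, and on each chromosome several genes of 1 segment share the value (7, 2 and 15 genes).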

How the data were processed

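The authors aligned shallow whole genome sequencing reads (HISAT2 2.1.0; cutadapt 2.8 and SAMtools 1.10 are also named in the submitters' processing notes) to mm39 and modelled copy number with cn.MOPS against the wildtype adrenal glands. The deposited table holds, per segment and sample, the median and mean log2 ratio and a copy number given by the authors, 1485 segments in all for 21 samples. Copy number equalled 2 times 2 to the power of the median to 1 decimal in all 1485. Window length and segmentation settings are not given in the sources used here. All segments start on a 20 kb grid, which limits the position of every end. The number of reads per library and per segment is unknown here, so no interval from depth is given. Binomial intervals (Clopper-Pearson, 95%) cover the number of tumours only.

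Genes were placed with GENCODE M39 on GRCm39, whose lengths equal the last segment ends of all 19 autosomes. A gene that met several segments took the highest. The 7 members and the list of 31 neighbours were chosen with earlier results of these data known, and 2 of the listed neighbours enter the counts but are not reported here by name. In addition, the genes at the ends of the amplified or raised segments were named, and the 3 genes outside Chr 6, each on another chromosome, with the highest Spearman correlation. Gains (at least 0.3, the study's threshold) were compared by Fisher's exact test with Benjamini-Hochberg adjustment over all protein-coding genes and the members. Levels were compared by two-sided exact permutation of the rank sum with adjustment over 3 pairs. Alternatives were thresholds of 0.2 and 0.5, the segment mean, the gene body, the difference of means, subsets of tumours, other levels for Chr 6, bridged gaps, a replicate block and, chosen after seeing the data, each tumour left out in turn. Functions were tested on simulated data. Tests used scipy 1.17.1, tables pandas 2.3.3 with numpy 2.4.6, and plots matplotlib 3.10.9, under Python 3.11.15.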

Additional observations from a re-analysis of the deposited data

Results flagged for a closer look

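The excess of Gt(ROSA)26Sor over the rest of Chr 6 in TI 8 was 0.00235, whereas the other 7 TI tumours were at 0, which marked this sample. Those zeros arise because the median of the chromosome falls in the segment of the gene, so any other value would be marked, and the difference is small against a gain at 0.3. TI 8 is the TI tumour with the loss beyond the gene, and the only TI tumour with the prefix AGH. In all, 9 sets of samples were examined (the level at the gene, the excess and the number of segments on Chr 6 in AGM, TI and TIM), and 1 was marked. Chance marks about 1 in 20 sets of values that are not tied, a share that does not apply to this one. The values of TIM 5 and TIM 9 were not marked, since a pair of equal high values leaves no gap at the top.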

How the results depend on the processing

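With the 7 members, which share 1 segment, counted once and the replicate block left out, 97 of 106 alternatives for 15 results kept the direction and the side of the threshold, or the count or length to within 1.5 times. For the level at Gt(ROSA)26Sor in TIM against AGM, the adjusted exact permutation p of 0.00466 became 0.0917 with the difference of means and 0.312 with a replicate block, and ranged from 0.00758 to 0.0121 with 1 sample left out. For TIM against TI it ranged from 0.0205 (without TIM 4 or TIM 8) to 0.141 with 1 sample left out, and for TI against AGM from 0.072 to 0.268. Without the tumours labelled adrenal, TIM 5 among them, the adjusted exact permutation p for TIM against TI was 0.206. In that subset the Fisher's exact p for gain at Gt(ROSA)26Sor was 0.286. The excess over Chr 6 had a p of 0.0443 to 0.383 with 1 tumour left out and 0.959, in the opposite direction, with the chromosome's mean. The number of members gained in at least 6 TIM tumours fell from 7 to 0 at a threshold of 0.5, where 5 TIM tumours and 1 TI tumour were gained, and stayed at 7 at 0.2, where 4 TI tumours were gained. The gained region of TI 3 shortened to 78.66 Mb and that of TIM 11 to 45.64 Mb at 0.5, and that of TI 4 grew to 146.4 Mb with gaps bridged. The regions of TIM 5 and TIM 9 kept their length in all settings run. The causes were not tested.

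Replicate numbers are shared by 5 TI and TIM tumours, but same-numbered tumours did not deviate together (correlations over genes from -0.365 to 0.417), so the block says nothing of pairing. With the replicate block the exact permutation p for gain at each member was 0.625, and 3 or 5 shared numbers cannot give a p below 0.25 or 0.0625. The number of samples and the 20 kb grid limit these results, and values near log2 3 do not resolve the height of an amplification.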
